A study of Homo sapiens with 4 samples.

Results

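The semaphorins, plexins, neuropilins, ephrins and Eph receptors were followed in Huh7 cells, a human hepatocellular carcinoma line, after oxidative stress. Members were chosen by gene symbol alone: every semaphorin, plexin, EphA or EphB receptor and A or B ephrin with a RefSeq mRNA row, together with NRP1, NRP2 and L1CAM. This gave 54 genes of the 42067 gene names in the tables, with 101 of 58146 transcript rows, and each gene was read from its row with the highest read total over the 4 libraries. The treated cells were kept for 4 days in 300 µM H2O2 with a daily change of medium, and the mock cells had the same 4 days and medium changes without H2O2. Each group had a library H and a library Q, letters taken from the sample titles; their meaning is not given in any source used here. Nothing in the labels says that the 2 libraries of a group came from separate cultures, so the p-values below measure the spread between these libraries, which may be technical.

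Semaphorins are secreted or membrane-bound guidance cues that bind plexins. Most class 3 semaphorins, which are secreted, need a neuropilin as the ligand-binding partner of the plexin, and the adhesion molecule L1CAM joins NRP1 in the receptor for SEMA3A. Ephrins are tethered to the cell surface, the A type by a lipid anchor and the B type by a membrane-spanning segment, and signal to Eph receptor tyrosine kinases on neighbouring cells and back into the cell that carries them. These families steer axons and vessels, and in epithelia and carcinomas they act in cell contact, migration and boundary formation.

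The 4 libraries held 78126878 to 88409567 mapped mates each, 87.4% to 91.7% of the input. With 1 row per gene the total count was 103851326 to 113082498 per library. Levels are given as read counts scaled to the library total with TMM factors (CPM, counts per 1000000), and levels of different genes are compared only per kilobase of transcript. No molecular identifiers are named in the labels, so reads may not be independent molecules. Summed hepatocyte markers (ALB, APOA1, APOB, TTR, SERPINA1, TF, AFP) stood at 20600 and 11974 CPM in H2O2 H and Q, against 17796 and 5780 CPM in mock H and Q. Endothelial markers summed to 3.08 and 2.78 CPM in H2O2 H and Q, against 2.58 and 3.52 CPM in mock H and Q, and 5 of the 6 averaged under 0.5 CPM. Fibroblast markers summed to 57.6 and 46.9 CPM in H2O2 H and Q, against 40.1 and 44.6 CPM in mock H and Q. That sum followed PDGFRA, with 42.1 and 28.7 CPM in H2O2 H and Q against 19.8 and 18.2 CPM in mock H and Q. COL1A1 went the other way, with 14.0 and 15.4 CPM in H2O2 H and Q against 18.6 and 22.2 CPM in mock H and Q. The groups of PDGFRB overlapped, and COL1A2, COL3A1 and DCN averaged under 0.5 CPM.

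Of the 54 members, 46 averaged at least 0.5 CPM over the 4 libraries and were tested. The other 8 were EFNB1, EPHA4, EPHB1, EPHB6, PLXNA4, SEMA4A, SEMA5A and SEMA5B. The levels per kilobase ran over more than 4 orders of size in the plot of all members by role. Among tested members the highest mean over the 4 libraries was that of PLXNB2, a plexin that binds class 4 semaphorins. It had 50.6 and 42.5 CPM per kilobase in H2O2 H and Q, against 44.1 and 57.1 in mock H and Q. Its groups overlapped. EFNA1, the ephrin that binds EPHA2, reached 54.7 and 26.7 CPM per kilobase in H2O2 H and Q, against 89.1 and 15.8 in mock H and Q. EFNA1 was thus above PLXNB2 in both H libraries and below it in both Q libraries. PLXNB1, SEMA4G, SEMA4C, EPHA2, EPHB4 and NRP1 averaged 27.1, 21.3, 20.4, 19.5, 17.6 and 15.8 CPM per kilobase over the 4 libraries. The epithelial pairs EFNA1 and EPHA2, and class 4 semaphorins and B plexins, were thus both present at the ligand and the receptor end. The B ephrins were low: EFNB3 averaged 0.572 CPM per kilobase and EFNB2 averaged 0.501, while EFNB1 averaged 0.0435.

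**Figure D1:**
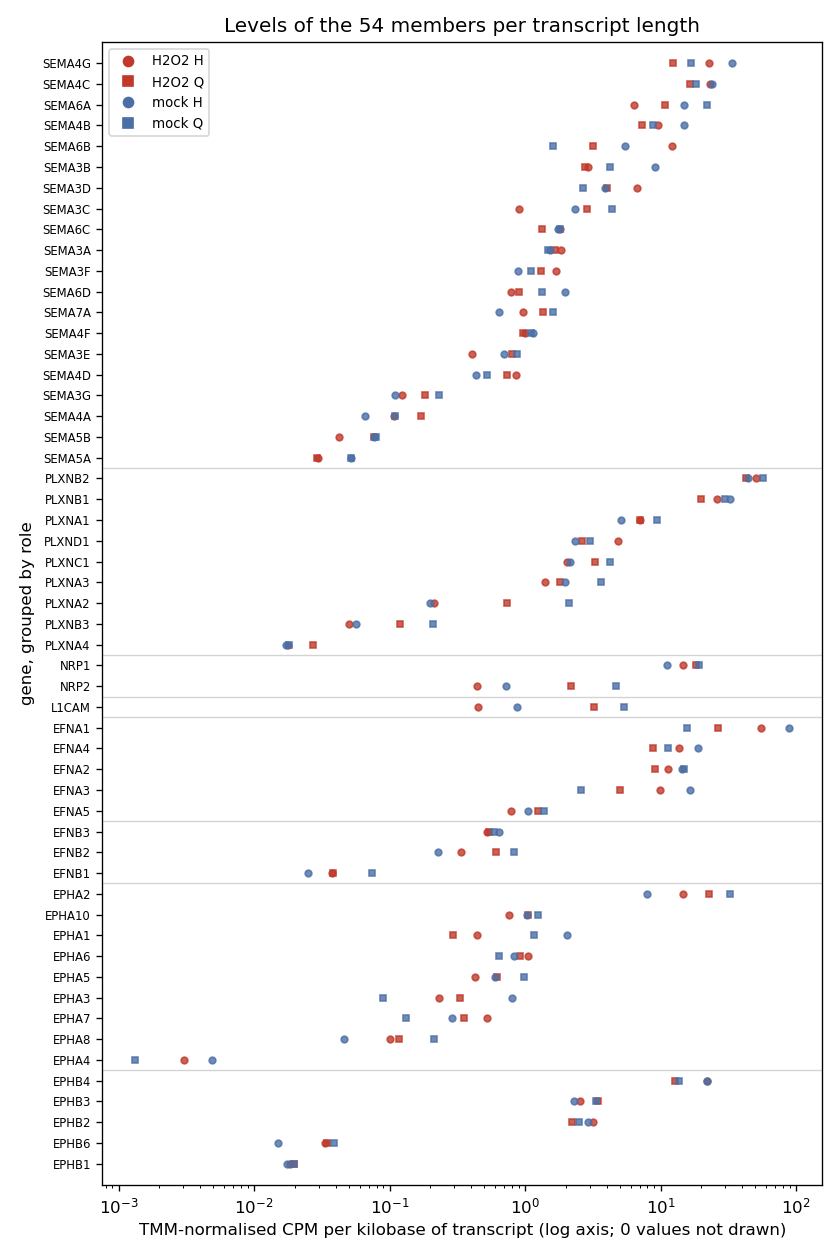
Level of each of the 54 members per kilobase of transcript (log axis), grouped by role and ordered by mean; red is H2O2, blue is mock, circles are library H and squares library Q. PLXNB2 and EFNA1 lie highest, the 8 untested members form the low end of their roles, and the 4 libraries of PLXNA2, NRP2 and L1CAM split by letter.

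With H2O2, 35 of the 46 tested members had a log2 fold change below 0 against mock and 11 had one above 0, with a median of -0.26. Over all 20814 genes tested, 52.3% were below 0 and 47.7% above, and the median was -0.02. No member passed edgeR's quasi-likelihood test at an adjusted p of 0.05, and neither did any other gene, so the share called over all genes was 0%. At an unadjusted p under 0.05, 5 members were past the line (10.9%), against 7.23% of all genes tested; they were EPHA1, SEMA3B, SEMA4D, SEMA6A and SEMA6D. DESeq2 called 1 member, EPHA1, and 0.841% of all genes. With the letter as a replicate block edgeR called no member and 0.0961% of all genes. The H2O2 library was below the mock library within each letter for 22 members (47.8%), against 35.3% of all genes tested, so part of the 35 rests on 1 letter. The count of members below 0 was 26 in the authors' FPKM, 29 with the letter as a replicate block and 24 without mock Q. The median of members was -0.09 without mock Q. Over all genes tested the median was 0.06 on log2(FPKM + 1), -0.008 with the block and -0.001 without mock Q. The median member log2 ratio of H2O2 over mock was -0.13 in letter H and -0.32 in letter Q.

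Both H2O2 libraries lay below both mock libraries for 9 members, which is 19.6%, against 21.7% of all genes tested. The reverse held for 6 members, or 13%, against 18.9% of all genes. Both shares of members are near or under those of all genes, so the counts are no result about these families. An exact permutation test of 2 against 2 libraries cannot go below 0.333 two-sided. With a log2 fold change of at least 0.5 in size as well, 6 members were lower (13%, against 9.05% of all genes) and 4 were higher (8.7%, against 6.81%). The lower ones were EPHA1, SEMA3B, SEMA6A, SEMA6D, PLXNA3 and EFNA2, and the higher ones were EPHA7, SEMA4D, SEMA3D and SEMA3F. Those 10 are described first among their roles below, beside the member of highest level in each role.

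**Figure D2:**
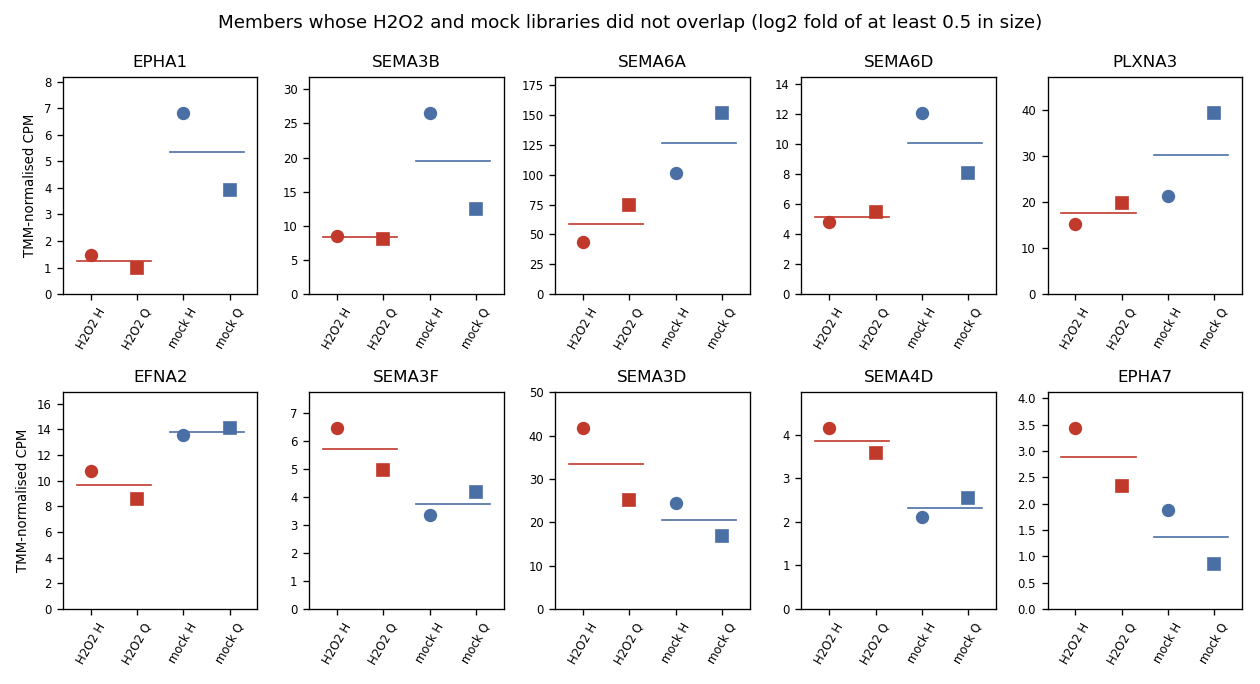
CPM of the 10 members whose H2O2 and mock libraries did not overlap and whose log2 fold change was at least 0.5 in size, ordered by fold; points are libraries (red H2O2, blue mock, circle H, square Q) and lines are group means of 2. EPHA1 shows the widest gap in fold, with 1.48 and 0.982 CPM in H2O2 against 6.80 and 3.91 CPM in mock.

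The secreted class 3 semaphorins, most of which act through neuropilins, were all 7 tested, with 3 log2 fold changes above 0, 4 below and a median of -0.16. SEMA3B, a candidate tumour suppressor, had 8.48 and 8.10 CPM in H2O2 H and Q, against 26.5 and 12.4 CPM in mock H and Q. The H2O2 libraries were alike and both lower, but the mock libraries differed from each other by more than they did. The log2 fold change was -1.23 (SE 0.40, adjusted p = 0.68), and without mock H it was -0.58. SEMA3D, which guides axons and vessels, had 41.7 and 25.2 CPM in H2O2 H and Q, against 24.5 and 16.8 CPM in mock H and Q. The lower H2O2 library stood just above the higher mock library, and the log2 fold change was 0.69 (SE 0.34, adjusted p = 0.688), or 0.29 without H2O2 H. SEMA3F, a repellent that signals through NRP2, had 6.46 and 4.99 CPM in H2O2 H and Q, against 3.36 and 4.18 CPM in mock H and Q. Its groups did not overlap, and its log2 fold change was 0.60 (SE 0.28, adjusted p = 0.684). SEMA3A, the classic repellent read by NRP1, was also separated, at 15.1 and 13.7 CPM in H2O2 H and Q against 12.6 and 12.2 CPM in mock H and Q, with a log2 fold change of 0.21. The other 3, SEMA3C, SEMA3E and SEMA3G, had log2 fold changes of -0.83 to -0.16, and their groups overlapped.

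Among the 13 membrane or lipid-anchored semaphorins, 10 were tested, with 3 log2 fold changes above 0, 7 below and a median of -0.18. SEMA6A, a transmembrane ligand of A plexins, had 43.5 and 74.6 CPM in H2O2 H and Q, against 101.7 and 151.5 CPM in mock H and Q. Every H2O2 library was lower, and within each treatment Q was higher than H. The log2 fold change was -1.10 (SE 0.35, adjusted p = 0.68), and the log2 ratio was -1.23 for the H libraries and -1.02 for the Q libraries. SEMA6D, of the same class, had 4.78 and 5.49 CPM in H2O2 H and Q, against 12.1 and 8.06 CPM in mock H and Q. Its groups did not overlap, with a log2 fold change of -0.97 (SE 0.29, adjusted p = 0.68). A short SEMA6D model of 476 codons held 9.46% and 7.34% of the read count of the main row in H2O2 H and Q, against 16.4% and 14.4% in mock H and Q. The short row was thus lower relative to the main one in both H2O2 libraries, a difference that was not tested. SEMA4D, a PLXNB1 ligand first known in lymphocytes, had 4.14 and 3.57 CPM in H2O2 H and Q, against 2.11 and 2.54 CPM in mock H and Q. Both H2O2 libraries were higher, with a log2 fold change of 0.73 (SE 0.27, adjusted p = 0.68). A second SEMA4D model of 738 codons held 75.6% and 92.0% of the read count of the main row in H2O2 H and Q. In mock H and Q it held 94.1% and 109.3%. With the models of each gene summed, the log2 fold change of SEMA4D was 0.58. Summed blood markers were also higher, at 666.3 and 645.3 CPM in H2O2 H and Q against 479.5 and 495.3 CPM in mock H and Q. Of those 6 markers PTPRC, CD3E and HBB averaged under 0.5 CPM, and their part in the SEMA4D difference was not tested.

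SEMA4G, the semaphorin with the highest mean level per kilobase, though above SEMA4C in mock H alone, had 93.2 and 50.7 CPM in H2O2 H and Q, against 136.7 and 68.9 CPM in mock H and Q. Here the letters set the order within each treatment and the groups overlapped; the log2 fold change was -0.51 (SE 0.45, adjusted p = 0.774). SEMA6B, a ligand of A plexins, had 48.5 and 12.6 CPM in H2O2 H and Q, against 21.9 and 6.39 CPM in mock H and Q. It was higher with H2O2 within each letter, by 1.15 in H and 0.98 in Q on the log2 scale, but the groups overlapped and the log2 fold change was 1.11 (SE 0.83, adjusted p = 0.757). SEMA7A, the lipid-anchored semaphorin, averaged 3.93 CPM in H2O2 and 3.79 CPM in mock, with a log2 fold change of 0.05. The remaining tested members SEMA4B, SEMA4C, SEMA4F and SEMA6C had log2 fold changes of -0.51 to -0.08.

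Plexins, the semaphorin receptors whose inner part switches off small GTPases of the Ras family, had a log2 fold change below 0 in 7 of 8 tested genes, with a median of -0.35, and H2O2 was below mock within each letter in 4 of the 8. PLXNA3, a partner of the neuropilins, had 15.3 and 19.8 CPM in H2O2 H and Q, against 21.4 and 39.3 CPM in mock H and Q. Its groups did not overlap and the log2 fold change was -0.79 (SE 0.35, adjusted p = 0.683), but without mock Q it was -0.29. PLXNB1, the SEMA4D receptor, was separated as well, at 191.6 and 144.8 CPM in H2O2 H and Q against 239.0 and 218.2 CPM in mock H and Q, with a log2 fold change of -0.44 (SE 0.22, adjusted p = 0.692). The ligand SEMA4D and its receptor PLXNB1 thus differed in opposite directions, neither past the adjusted threshold. PLXNB2 had 320.5 and 269.4 CPM in H2O2 H and Q, against 279.1 and 362.0 CPM in mock H and Q. Its groups overlapped and its log2 fold change was -0.12 (SE 0.24, adjusted p = 0.892). PLXND1, the SEMA3E receptor of vessels, was the plexin with a positive fold, 0.48 (SE 0.35), and H2O2 H held the high value, 34.5 CPM, against 16.7 CPM in mock H. PLXNA1, PLXNA2, PLXNB3 and PLXNC1 had log2 fold changes of -0.03, -1.27, -0.65 and -0.26, and their groups overlapped.

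NRP1, which binds class 3 semaphorins and VEGF, had 85.3 and 107.6 CPM in H2O2 H and Q, against 65.6 and 112.8 CPM in mock H and Q. Q was higher than H in each group, the groups overlapped, and the log2 fold change was 0.11 (SE 0.31, adjusted p = 0.925). NRP2 had 2.96 and 14.5 CPM in H2O2 H and Q, against 4.81 and 31.4 CPM in mock H and Q. L1CAM had 2.29 and 16.5 CPM in H2O2 H and Q, against 4.45 and 27.6 CPM in mock H and Q. In both genes the H2O2 library was below the mock library of its letter, but the letters lay so far apart that the log2 fold changes, -1.05 (SE 1.08) and -0.77 (SE 1.16), were smaller than their standard errors. The short NRP1 model of 644 codons, which lacks the membrane-spanning part and is secreted, held a read count of 50.0% and 54.8% of the full-length row in H2O2 H and Q, against 43.2% and 51.8% in mock H and Q. Reads of shared exons are in both rows, so this percentage is not the share of secreted NRP1.

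The 5 A ephrins, ligands of EphA receptors, had fitted log2 fold changes between -0.51 and -0.27, with a median of -0.37. None passed the test, and H2O2 was below mock within each letter in 3 of them (EFNA2, EFNA4 and EFNA5), while EFNA1 and EFNA3 were higher with H2O2 in letter Q, by 0.76 and 0.98 on the log2 scale. EFNA2 had 10.8 and 8.56 CPM in H2O2 H and Q, against 13.6 and 14.1 CPM in mock H and Q. It was the A ephrin whose groups did not overlap, with a log2 fold change of -0.51 (SE 0.23, adjusted p = 0.683). EFNA1 had 105.4 and 51.4 CPM in H2O2 H and Q, against 171.5 and 30.4 CPM in mock H and Q. Both H2O2 libraries lay between the mock libraries, so the direction differed by letter, and the log2 fold change of -0.36 had an SE of 0.83. It was 0.07 in the authors' FPKM and 0.02 with the letter as a replicate block, so its direction was not settled. EFNA3 had the same order of libraries, with 17.6 and 8.99 CPM in H2O2 H and Q against 29.3 and 4.57 CPM in mock H and Q. Of the 2 tested B ephrins, EFNB3 had 1.67 and 1.73 CPM in H2O2 H and Q, against 2.07 and 1.91 CPM in mock H and Q. The gap between the groups was narrow, and its log2 fold change was -0.22 (SE 0.26, adjusted p = 0.824).

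EFNA1 and EFNA3 lie close together on chromosome 1, with EFNA4 beside them. EFNA4 had 17.2 and 11.1 CPM in H2O2 H and Q, against 24.0 and 14.4 CPM in mock H and Q, so its H2O2 libraries were each below the mock library of the same letter, unlike those of its neighbours. EFNA1 and EFNA3 both had H2O2 H above H2O2 Q, with mock H above and mock Q below them, and this was also the order of the sum over a list of hypoxia-inducible genes added after the values were seen. The list summed to 942.0 and 856.7 CPM in H2O2 H and Q against 2428 and 603.0 CPM in mock H and Q. Of its 11 tested genes 6 had that order, and NDRG1, SLC2A1, ENO2, VEGFA and EGLN3 did not. NDRG1 alone held 863.1 CPM of the sum in mock H. The order was also held by 2 of 7 hepatocyte markers and by 1 of 51 tested genes of the guidance lists described below. No tested gene of the endothelial, fibroblast, neuronal and blood marker lists had it. The share of all genes with this order is not given. Neither the 6 of 11 nor the counts in the other lists thus have a background to be read against. The part of the hypoxia-inducible genes in the ephrin values was not tested. The 250 bases before the RefSeq start are shown for both genes, from the GRCh38.p14 tables, 5′ to 3′ on the gene's strand, because EFNA1 and EFNA3 stood in one order; capitals mark GCGTG or its reverse complement CACGC, one form of the core that hypoxia-inducible factors bind. The windows are chr1:155127626-155127875 and chr1:155078587-155078836, both on the plus strand.
EFNA1: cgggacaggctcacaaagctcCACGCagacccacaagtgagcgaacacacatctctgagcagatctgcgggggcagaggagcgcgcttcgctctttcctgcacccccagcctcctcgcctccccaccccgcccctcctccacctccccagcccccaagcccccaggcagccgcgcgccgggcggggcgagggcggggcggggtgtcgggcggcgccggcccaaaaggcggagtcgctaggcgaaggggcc
EFNA3: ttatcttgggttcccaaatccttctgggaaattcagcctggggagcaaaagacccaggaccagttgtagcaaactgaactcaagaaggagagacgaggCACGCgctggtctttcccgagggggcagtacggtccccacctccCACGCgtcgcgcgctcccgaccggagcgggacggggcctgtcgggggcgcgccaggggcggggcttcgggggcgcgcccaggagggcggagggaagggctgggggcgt

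EFNA1 had 1 match and EFNA3 had 2, and the other core, ACGTG, was in neither window. GCGTG was present on either strand in 32.2% of 35093 windows of all genes and in 26 of the 76 member windows (34.2%). ACGTG was in 18.5% of all windows and in 18.4% of member windows. A match is a description of letters and not a bound site.

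EphA receptors, the kinases that A ephrins switch on, had a log2 fold change below 0 in 6 of 8 tested genes, with a median of -0.29. H2O2 was below mock within each letter in 3 of the 8 (EPHA1, EPHA5 and EPHA10), and no direction can be given for EPHA2 and EPHA3, described below. EPHA1 had 1.48 and 0.982 CPM in H2O2 H and Q, against 6.80 and 3.91 CPM in mock H and Q. Every H2O2 library was lower, and the ratio was alike within the letters, at -2.20 in H and -1.99 in Q on the log2 scale. The log2 fold change was -2.12 (SE 0.41, adjusted p = 0.68), the lowest of all 46 tested members. DESeq2 called it, with an adjusted p of 0.00145. Leaving out a library gave -2.47 to -1.67. EPHA1 averaged 1.23 ± 0.352 CPM in H2O2 and 5.36 ± 2.05 CPM in mock (SD, n = 2 each), so it was a low gene in both groups. Its exons overlap those of ZYX on the opposite strand in GENCODE v29, and the use of strand in the counting was not given, so reads of the overlap cannot be told apart. ZYX, which encodes the focal adhesion protein zyxin, had 65.9 and 93.8 CPM in H2O2 H and Q, against 60.8 and 131.6 CPM in mock H and Q, which is another order of libraries than that of EPHA1.

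The 250 bases before the EPHA1 start are given because EPHA1 had the largest fold of the family; the window is chr7:143408857-143409106 on the minus strand of GRCh38.p14, from RefSeq, and capitals mark CAGGTG, the reverse complement of the E-box CACCTG that SNAI and ZEB repressors bind.
EPHA1: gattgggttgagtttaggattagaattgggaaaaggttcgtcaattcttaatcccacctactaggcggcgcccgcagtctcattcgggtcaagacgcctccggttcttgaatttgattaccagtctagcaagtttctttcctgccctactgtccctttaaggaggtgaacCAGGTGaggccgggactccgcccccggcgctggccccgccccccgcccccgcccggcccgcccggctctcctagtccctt

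This E-box was in 17.5% of all windows and in 12 of the 76 member windows (15.8%). The EPHA1 window held none of the 4 other motifs searched on both strands: the hypoxia core ACGTG, the other hypoxia core GCGTG, the antioxidant element core TGACNNNGC, and the AP-1 site TGANTCA. TGACNNNGC was in 10.9% of all windows and 6 member windows, and TGANTCA was in 6.57% of all windows and 1 member window. No match says only that these letters are not in this window.

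EPHA7, a receptor best known from the developing cortex, had 3.43 and 2.33 CPM in H2O2 H and Q, against 1.89 and 0.865 CPM in mock H and Q. The H2O2 libraries were both higher, and H was above Q in each group. The log2 fold change was 1.07 (SE 0.47, adjusted p = 0.683), and it was 1.73 without mock H and 0.60 without mock Q. EPHA6 was separated as well, at 4.13 and 3.67 CPM in H2O2 H and Q against 3.29 and 2.54 CPM in mock H and Q, with a log2 fold change of 0.42 (SE 0.27). EPHA5, EPHA8 and EPHA10 had folds of -0.58, -0.25 and -0.34 on the log2 scale, with overlapping groups. EPHA1 and EPHA7 were thus at opposite ends of the EphA group. EPHA2, the EphA receptor with the highest level per kilobase and a major receptor of EFNA1 in epithelia, had 57.9 and 90.8 CPM in H2O2 H and Q, against 31.4 and 129.5 CPM in mock H and Q. As for EFNA1, both H2O2 libraries lay between the mock libraries, but the letters were reversed: EPHA2 was higher in Q and EFNA1 in H. Its log2 fold change of -0.11 (SE 0.67, adjusted p = 0.966) was 0.18 with the letter as a replicate block and 0.24 on log2(FPKM + 1), so no direction can be given.

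EPHA3 had 1.34 and 1.93 CPM in H2O2 H and Q, against 4.65 and 0.521 CPM in mock H and Q. The H2O2 libraries were alike and the mock libraries stood far apart, above and below them. The ratio of H2O2 over mock was therefore -1.80 for the H libraries and 1.89 for the Q libraries on the log2 scale, and the fitted log2 fold change was -0.66 (SE 0.96, adjusted p = 0.857), or -0.04 with the letter as a replicate block. Opposite ratios of at least 1 within the letters were found in this member alone, 2.17% of the 46, against 0.207% of all genes tested (43 genes). A short EPHA3 model of 539 codons held 82.7% and 77.4% of the read count of the full-length row in H2O2 H and Q, against 41.2% and 214.5% in mock H and Q. In mock Q, with 62 reads on the long row and 133 on the short one, the short row was thus the larger.

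EphB receptors, the partners of B ephrins, stayed near 0 in fold: the 3 tested genes EPHB2, EPHB3 and EPHB4 had log2 fold changes of -0.01, 0.09 and -0.02. EPHB4, the EFNB2 receptor of veins and the EphB member with the highest level per kilobase, had 95.6 and 55.7 CPM in H2O2 H and Q, against 95.1 and 58.7 CPM in mock H and Q. The groups covered the same range and the letters differed within each; the SE was 0.37 and the adjusted p was 0.988. EPHB4 shares exon bases with SLC12A9 on the opposite strand, as SEMA4G does with MRPL43 and PLXNA3 with LAGE3; 17 tested members in all have exons that overlap another gene.

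**Figure D3:**
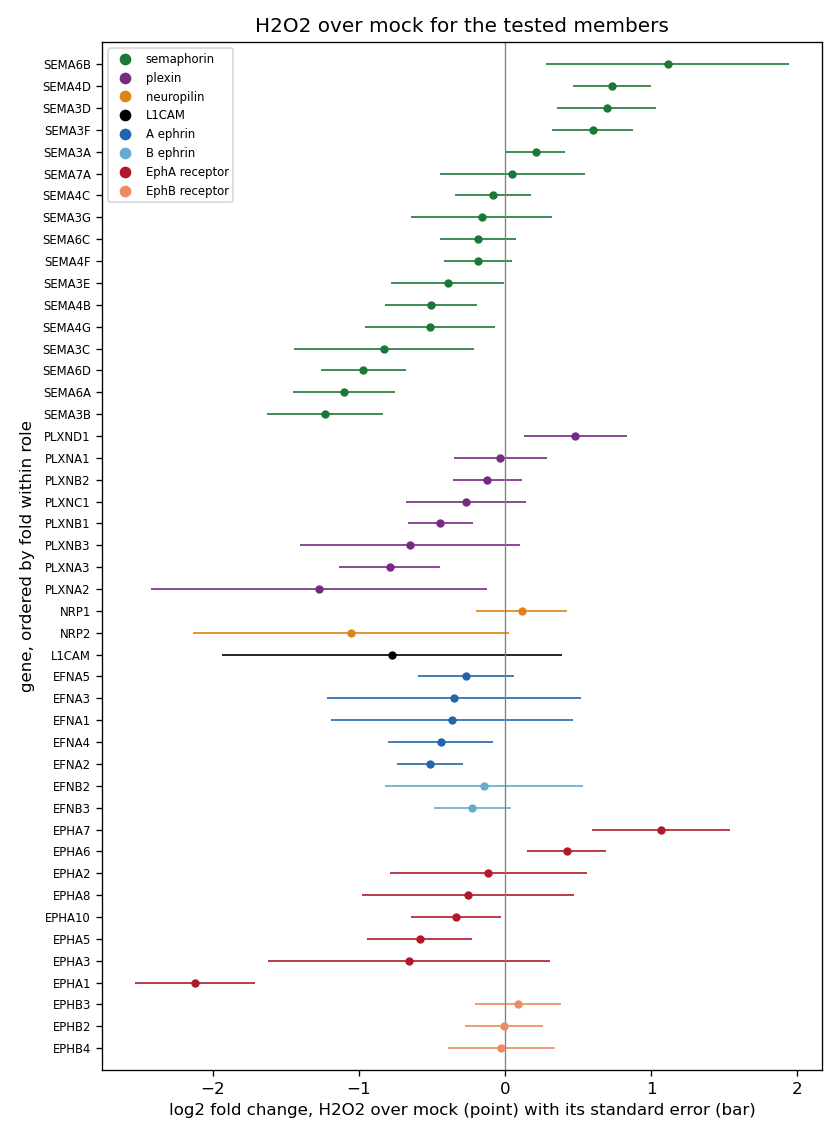
Log2 fold change of H2O2 over mock for the 46 tested members (points) with the standard error of the fit (bars), grouped by role and ordered by fold. Most points lie left of 0, with EPHA1 at -2.12 and SEMA6B at 1.11 at the ends, and no member passed the adjusted threshold in edgeR.

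Many members differed more by the letter of the library than by treatment, as did many genes outside these families. Library Q was compared with library H in a fit that held treatment as a term, added after the values were seen. That fit left 1 residual degree of freedom, so its standard errors and p-values rest on little. It called 9 of 46 members (19.6%), against 5.4% of all genes tested, and the members are named for that call. L1CAM, NRP2, PLXNA2, PLXNC1, SEMA3C and SEMA6A were higher in Q (13% of members, against 2.64% of all genes). EPHB4, SEMA4G and SEMA6B were lower in Q (6.52%, against 2.76%). The count depended on the settings. It was 6 members with DESeq2's size factors, where 972 of 20814 genes were called. Without a filter on low counts it was 20 of 54 members, against 3594 of 39529 genes. With DESeq2's own test it was 18 members, against 2537 of 20814 genes. For 29 members (63%) the letter difference was larger in size than that of treatment, against 53.2% of all genes. Q lay above H in both groups for 19 members (41.3%, against 38.1% of all genes), and below H in both for 17 members (37%, against 34.1%). What the letters stand for cannot be told from the sources used here, so these are differences between libraries.

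**Figure D4:**
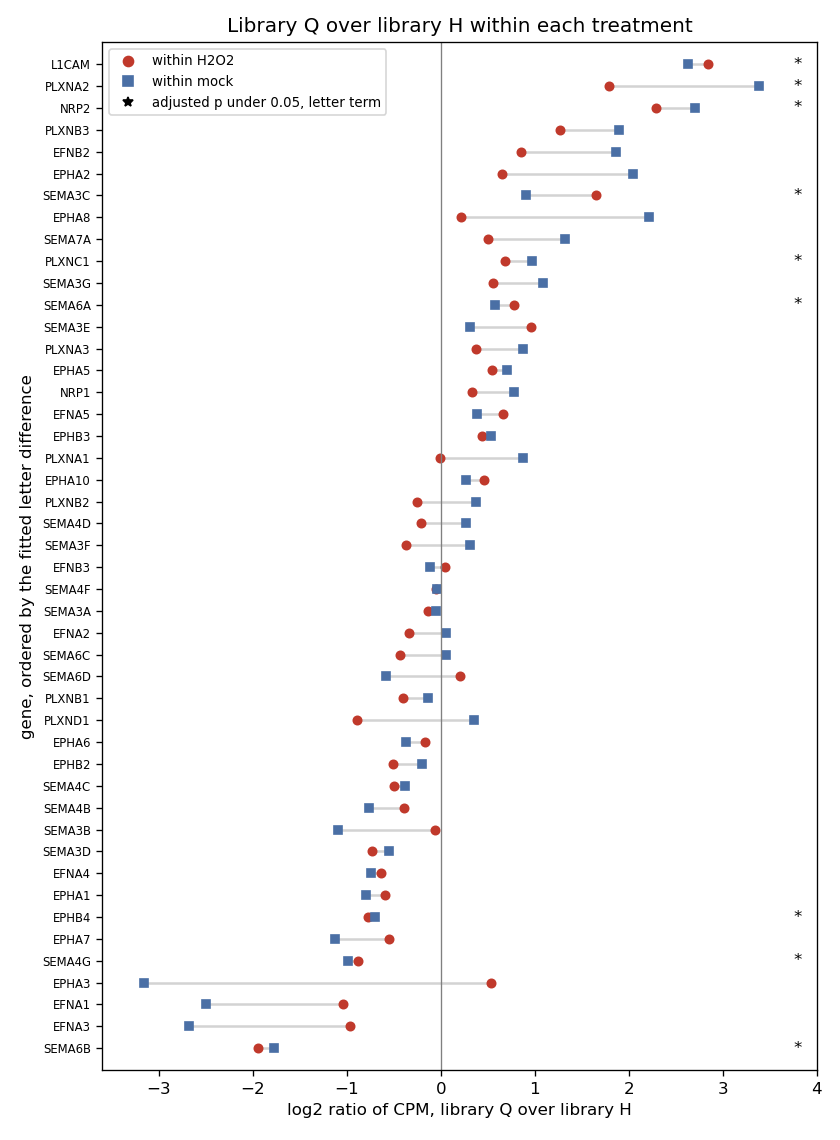
Log2 ratio of CPM in library Q over library H for the 46 tested members, within H2O2 (red circles) and within mock (blue squares), ordered by the fitted letter difference; stars mark an adjusted p under 0.05 for the letter. L1CAM, PLXNA2 and NRP2 head the order in both treatments, and EPHA3 shows the widest split between treatments.

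L1CAM, an adhesion molecule of axons that many carcinomas also carry, had the lowest p of the letter fit among members. Its levels, given above, were 16.5 CPM in H2O2 Q against 2.29 CPM in H2O2 H, and 27.6 CPM in mock Q against 4.45 CPM in mock H. The log2 difference of Q over H was 2.74 (SE 0.18, edgeR adjusted p = 0.0176). NRP2 differed by 2.50 (SE 0.20, adjusted p = 0.02). PLXNA2, a SEMA6A receptor and neuropilin partner, had 8.42 CPM in H2O2 Q against 2.43 CPM in H2O2 H, and 23.9 CPM in mock Q against 2.28 CPM in mock H. The low libraries were both H, and the log2 difference was 2.59 (SE 0.41, adjusted p = 0.0385). SEMA6B stood the other way, with a difference of -1.86 (SE 0.15, adjusted p = 0.02). EFNA1 was also lower in Q, by a log2 difference of -1.77 (SE 0.35), with an adjusted p of 0.0508. SEMA3C, a secreted ligand of NRP1 and NRP2, was higher in Q by 1.28 (SE 0.23, adjusted p = 0.0441).

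These families did not move as one with the letter. The A plexin ligands SEMA6A and SEMA6B were called in opposite directions, PLXNB1 was lower in Q in both groups (log2 ratio -0.40 in H2O2 and -0.13 in mock), and PLXNA1 did not separate by letter. Summed neuronal markers were higher in Q, at 79.1 CPM in H2O2 Q against 39.4 CPM in H2O2 H, and 101.8 CPM in mock Q against 42.6 CPM in mock H. Of those 6 markers RBFOX3 and STMN2 averaged under 0.5 CPM, while MAP2 had 36.9 CPM in H2O2 Q against 8.48 CPM in H2O2 H, and 46.2 CPM in mock Q against 5.25 CPM in mock H. TUBB3 was also higher in Q in both treatments, SYP was lower in Q in both, with 1.94 CPM in H2O2 Q against 2.03 CPM in H2O2 H and 1.25 CPM in mock Q against 1.55 CPM in mock H, and SNAP25 was higher in Q in H2O2 and lower in Q in mock. The sum thus followed MAP2 more than the list. The summed hepatocyte markers, given above, were lower in Q in both treatments, as was each marker of that list except TTR. TTR was higher in Q, at 20.6 CPM in H2O2 Q against 14.5 CPM in H2O2 H, and 26.4 CPM in mock Q against 17.7 CPM in mock H. The part of these markers in the letter differences was not tested. The 250 bases before the RefSeq starts of NRP2 and PLXNA2 are shown because these receptors were high in the same libraries; the windows are chr2:205682251-205682500 on the plus strand and chr1:208244385-208244634 on the minus strand of GRCh38.p14. Neither holds any of the 5 motifs on either strand, so no letter is in capitals.
NRP2: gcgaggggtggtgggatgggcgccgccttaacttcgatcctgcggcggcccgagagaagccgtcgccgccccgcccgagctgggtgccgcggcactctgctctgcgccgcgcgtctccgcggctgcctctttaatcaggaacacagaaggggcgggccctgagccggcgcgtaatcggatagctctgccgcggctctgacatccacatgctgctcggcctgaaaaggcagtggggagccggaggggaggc
PLXNA2: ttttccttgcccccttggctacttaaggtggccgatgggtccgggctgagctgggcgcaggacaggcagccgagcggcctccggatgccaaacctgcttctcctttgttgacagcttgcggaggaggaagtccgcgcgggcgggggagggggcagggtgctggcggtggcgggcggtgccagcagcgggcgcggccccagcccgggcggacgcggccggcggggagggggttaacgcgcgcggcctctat

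**Figure D5:**
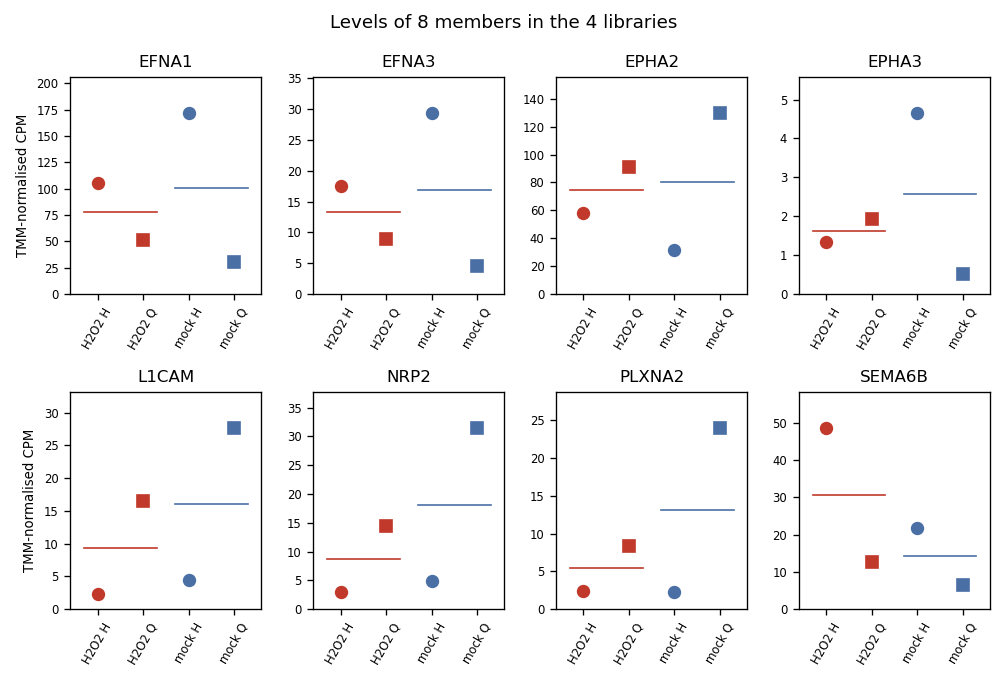
CPM of 8 members in each library (red H2O2, blue mock, circle H, square Q; lines are group means of 2). In EFNA1, EFNA3 and EPHA2 both H2O2 libraries lie between the mock libraries, with mock H highest for the ephrins and mock Q highest for EPHA2, and L1CAM, NRP2 and PLXNA2 are high in both Q libraries.

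The wider guidance pathway was read from 5 lists with 68 gene symbols, of which 67 were found and 51 were tested. The lists held plexin effectors, Eph receptor effectors, the netrin, Slit and RGM families with receptors, the VEGF ligands of neuropilins, and the L1 family. Of those 51, none passed edgeR's adjusted threshold, 7 had an unadjusted p under 0.05 (13.7%, against 7.23% of all genes), and DESeq2 called 1, PGF (1.96%, against 0.841%). Of the 51, 16 had a log2 fold change above 0 and 35 below, with a median log2 fold change of -0.09 (and 0.08 without mock Q). Plexin effectors counted 4 above and 16 below 0, with a median of -0.25. Eph effectors counted 2 above and 13 below, with a median of -0.09. The netrin, Slit and RGM list counted 7 above and 3 below, with a median of 0.34.

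PGF, placental growth factor, which binds neuropilins and FLT1, had 16.0 and 14.0 CPM in H2O2 H and Q, against 5.73 and 6.99 CPM in mock H and Q. The groups did not overlap, with a log2 fold change of 1.24 (SE 0.23, adjusted p = 0.68; DESeq2 adjusted p = 0.0046). VEGFA, the main NRP1 ligand among the growth factors, had 218.0 and 169.9 CPM in H2O2 H and Q, against 301.7 and 195.5 CPM in mock H and Q, and its groups overlapped. DPYSL5, a member of the collapsin response mediator proteins, had 22.9 and 11.2 CPM in H2O2 H and Q, against 8.96 and 8.06 CPM in mock H and Q, with a log2 fold change of 1.0 (SE 0.39). DPYSL2, of the same family and a carrier of the SEMA3A signal to microtubules, was lower, at 35.8 and 39.4 CPM in H2O2 H and Q against 70.3 and 57.2 CPM in mock H and Q (log2 fold change -0.76, SE 0.20). MICAL1, an oxidase that takes apart actin filaments downstream of plexins, had 21.8 and 25.5 CPM in H2O2 H and Q, against 30.8 and 64.1 CPM in mock H and Q, with a log2 fold change of -1.0 (SE 0.38). UNC5B, a netrin receptor, had 6.02 and 7.51 CPM in H2O2 H and Q, against 3.32 and 3.95 CPM in mock H and Q, with a log2 fold change of 0.90 (SE 0.26). VAV3, an exchange factor recruited by Eph receptors, had 13.0 and 14.7 CPM in H2O2 H and Q, against 32.1 and 19.5 CPM in mock H and Q, with a log2 fold change of -0.90 (SE 0.30). The adjusted p of DPYSL5, DPYSL2, MICAL1, UNC5B and VAV3 was 0.68 in each case, and these genes were named for separated groups with the largest folds of the lists. Among L1 relatives, NRCAM stood like L1CAM, with 67.3 CPM in H2O2 Q against 25.7 CPM in H2O2 H, and 122.0 CPM in mock Q against 39.2 CPM in mock H.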

How the data were processed

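RNA-seq tables were used for 2 H2O2 and 2 mock libraries of Huh7 cells, made from total RNA with the TruSeq RNA kit per the labels. Each deposited table gives, per the file headers, a read count and an FPKM value per transcript model; the mate totals come from the deposited alignment summaries. The submitters' processing notes name Cuffdiff, TopHat 1.3.3, Bowtie 0.12.2 and CASAVA, and the builds mm8, hg19 and GRCh37, without roles; a step from reads to count, and the use of strand, is not given in the sources used here.

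Counts were taken from 1 row per gene, the row with the highest total over the 4 libraries. Genes with a mean of at least 0.5 CPM over the 4 libraries (20814 of 42067) were fitted with edgeR 4.0.16 (TMM, quasi-likelihood, two-sided) in R 4.3.3, with Benjamini-Hochberg adjustment over all of them and a threshold of 0.05. In the treatment fit the common biological coefficient of variation was 0.284, with 2 residual degrees of freedom. Fits that held both letter and treatment left 1 residual degree of freedom. The standard error (SE) is the log2 fold change in size divided by the square root of F. DESeq2 1.42.0 and limma 3.58.1, limma being run on log2(FPKM + 1) and log2(FPKM + 0.1), served as alternatives. The authors' FPKM also served as a filter (at least 1 in 2 or more libraries) in another alternative. The letter of the title was a block in 1 alternative, and was itself compared in a fit added after the values were seen. Libraries of the same letter deviated together from their group means (correlation 0.629), but the labels do not say that the letter pairs them. The scripts were tested on simulated data.

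Transcript lengths came from GENCODE v29, by accession for 53 members and by name for EPHA2. Promoter windows (250 bases before the start) came from RefSeq tables of GRCh38.p14, which held 48 of the 54 members; this build is not that of the files, and its coordinates were used for these sequences only. Windows on chromosome 8 were left out of the shares of all windows.

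The genes named with full values were tested members whose groups separate with a log2 fold change of at least 0.5 in size, the member of highest level per kilobase in each role, and members whose ratios within the letters differ in sign and are both at least 1 in size; from the guidance lists, the 3 largest folds in each direction among genes whose groups separate. Other genes were named after their values were seen. The members, the lists and this rule were chosen with earlier results of these data known.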

Additional observations from a re-analysis of the deposited data

Results flagged for a closer look

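EPHA3 stood out because its difference between H2O2 and mock had opposite signs in the letters. The log2 ratio of H2O2 over mock was -1.80 within letter H, with 1.34 CPM in H2O2 H against 4.65 CPM in mock H. It was 1.89 within letter Q, with 1.93 CPM in H2O2 Q against 0.521 CPM in mock Q. Each letter has 1 library per treatment, which leaves no residual degrees of freedom, so the difference between the letters was not tested. On the row used, the H2O2 libraries differed by 0.53 and the mock libraries by -3.16 on the log2 scale (Q over H). The spread on that row thus lay between the mock libraries. The read counts behind the values were 139 and 230 in H2O2 H and Q, against 452 and 62 in mock H and Q. The short EPHA3 model had 115 and 178 reads in H2O2 H and Q, against 186 and 133 in mock H and Q. The mock libraries lay much closer together on that model, so the size of the pattern depends on the row read.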

How the results depend on the processing

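The counts of members called, separated and below 0, the medians and the folds of 19 named members were recomputed under 14 alternatives. DESeq2 called 1 member (EPHA1, log2 fold change -2.12) and 1 gene of the guidance lists, against 0 and 0 in edgeR. On the authors' FPKM, with either pseudocount, 5 members were separated and lower, against 9 on counts. The median over all genes tested was 0.06 with a pseudocount of 1 and 0.07 with 0.1, against -0.02 on counts. The share of all genes separated on FPKM is not given, so the change from 9 to 5 has no background to be read against. The direction of EFNA1 turned to 0.02 with the letter as a replicate block and to 0.07 on FPKM with either pseudocount, and that of EPHA2 to 0.18, 0.24 and 0.25. EPHA3 turned to 0.19 and 0.32 on FPKM, and EPHB4 to 0.0 without a filter on low counts. The replicate block called 0 members and gave a median of -0.15. The letter comparison called 20 of 54 members without a filter and 18 of 46 with DESeq2. The main fit called 9 of 46, all 9 shared in each case. Summed models, DESeq2 size factors and raw library sizes gave 12, 6 and 9. Over all genes it called 3594 of 39529 without a filter, 2537 of 20814 with DESeq2 and 1124 of 20814 in the main fit. Summed models called 1430 of 18953 genes, DESeq2 size factors 972 of 20814 and raw library sizes 1447 of 20814.

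Leaving out each library in turn gave 0 members called throughout, a median of -0.34 to -0.09, 24 to 31 members below 0, 7 to 16 separated and higher, and 16 to 28 separated and lower; a group of 1 library separates more easily. The share of all genes separated is not given for these fits, so those counts are no result about these families. The lone library is assumed to vary like the other group. Of the named members 11 kept their direction and 8 did not: EFNA1 ran from -1.13 to 1.37, EPHA2 from -0.80 to 1.24, EPHA3 from -1.51 to 1.65, EPHB4 from -0.47 to 0.36, L1CAM from -2.80 to 1.07, NRP1 from -0.23 to 0.55, PLXNB2 from -0.30 to 0.08 and SEMA4G from -1.02 to 0.06. The median of the guidance lists ran from -0.18 to 0.08. The letter comparison could not be refitted without a library, since no residual degrees of freedom remain. The effect of depth on the calls was not tested.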
